A study of Mus musculus with 6 samples.

Results

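The nuclear genes that encode the subunits of the mitochondrial respiratory chain and of ATP synthase were examined in control and Tet1/Tet2-silenced mouse bone marrow mesenchymal stem cells (BMMSCs). Members were entries of the gene table taken by symbol alone. The symbol starts with Nduf and a subunit letter and number (complex I), Uqcr (complex III), Cox4 to Cox8 (complex IV) or Atp5 (ATP synthase). For complex II the symbol is exactly Sdha, Sdhb, Sdhc or Sdhd, so assembly factors starting with Sdh are outside the rule. Entries with pseudogene symbols were left out. Of 85 matching entries 1 was left out in this way, and 84 of the table's 36915 entries remained, 37 for complex I, 4 for complex II, 8 for complex III, 18 for complex IV and 17 for ATP synthase. Whether silencing of Tet1 and Tet2, enzymes that oxidise methylated cytosine in DNA, moved these genes together, by complex or by isoform was the question asked of the data.

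RNA-seq had been performed on 3 control libraries and 3 siTet1/Tet2 libraries. The cells of both groups were from C57BL/6 mice and were the adherent fraction of whole marrow flushed from femurs and tibias, labelled as passage 2, whereas the study's methods give an earlier passage. The control group received a non-targeting siRNA according to the labels and a vehicle according to the RNA-seq methods, and the siTet1/Tet2 group received siRNAs against Tet1 and Tet2 in combination. The labels do not say whether the replicates were separate cultures or animals, so p-values measure only the spread between these libraries, which may be technical. Expression is given as RPKM, reads per kilobase of transcript scaled to the mapped reads of the library, and fold changes are differences of log2(RPKM + 1) between the groups, a scale that understates the change of genes with low RPKM. Differences were tested with limma across the 13266 genes that averaged 0.1 RPKM or more over the libraries, and a gene was called higher or lower at an adjusted p under 0.05.

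The respiratory chain passes electrons from NADH, through complex I, and from succinate, through complex II, to ubiquinone, then through complex III and cytochrome c to complex IV, where oxygen is reduced. Complexes I, III and IV pump protons across the inner mitochondrial membrane, and ATP synthase uses the returning protons to make ATP. Most subunits are encoded in the nucleus and a small set in mitochondrial DNA, so assembly of every complex but complex II needs both genomes. Undifferentiated mesenchymal stem cells are known to rely largely on glycolysis and to raise oxidative phosphorylation when they form bone, and alternatively activated macrophages are known for high oxidative phosphorylation.

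The targeted genes were checked before the members. Tet2 was at 2.57, 4.08 and 3.71 RPKM in control replicates 1, 2 and 3 and at 0.358, 0.238 and 0.202 RPKM in siTet1/Tet2 replicates 1, 2 and 3, a log2 fold change of -1.80 (SE 0.13, adjusted p = 2.88e-05 from limma). Tet1 was at 0.032, 0.098 and 0.05 RPKM in the controls and at 0.001, 0.01 and 0.001 RPKM in the siTet1/Tet2 libraries, and was too low to be tested. The untargeted Tet3 averaged 7.03 ± 1.55 RPKM (SD, n = 3) in control and 7.66 ± 0.767 RPKM (SD, n = 3) in siTet1/Tet2 libraries (adjusted p = 0.508 from limma). Every siTet1/Tet2 library was below every control for Tet1 and Tet2, as the labels say, and the groups overlapped for Tet3.

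The label of the cells was checked against markers. The most abundant macrophage marker, Lyz2, was at 5013, 4757 and 3547 RPKM in the controls and at 12728, 11393 and 9842 RPKM in the siTet1/Tet2 libraries, whereas the most abundant stromal marker, Col1a1, was at 416.3, 394.2 and 654.7 RPKM in the controls and at 48.4, 64.2 and 103.7 RPKM in the siTet1/Tet2 libraries. Summed over 15 macrophage markers, the level was 12244, 11640 and 9560 RPKM in the controls and 20366, 19116 and 17156 RPKM in the siTet1/Tet2 libraries, with most of the rise in Lyz2. Summed over 15 stromal markers, it was 1213, 1131 and 1638 RPKM in the controls and 145.4, 200.1 and 292.9 RPKM in the siTet1/Tet2 libraries. Macrophage transcripts thus exceeded stromal transcripts in all 6 libraries, and the stromal sum was lower in every siTet1/Tet2 library than in every control. Of the stromal markers 10 of 12 tested were called lower and 0 higher at an adjusted p under 0.05 from limma. At an unadjusted p under 0.05 from limma 11 were lower and 0 higher. Of 15 macrophage markers 7 were called higher and 2 lower, or 1 lower without control replicate 2, siTet1/Tet2 replicate 1 or siTet1/Tet2 replicate 2. The number higher was 6 without control replicate 1, and 5 without control replicate 2 or siTet1/Tet2 replicate 2 or 3. The 2 called lower were Fcgr1, from 109 ± 10.0 to 27.8 ± 2.53 RPKM (SD, n = 3 a group; log2 fold change -1.93, adjusted p = 3.09e-06 from limma), and Mrc1 (log2 fold change -0.27, adjusted p = 0.0327 from limma). The stromal markers Thy1, Lepr and Lum did not reach 0.1 RPKM on average in these cells. In bulk samples fewer cells of a type and less RNA per cell cannot be told apart, and the part of these markers in the values of the subunit genes was not tested.

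The other marker lists were read in the same way. Among the 9 osteoclast markers 3 of 6 tested were called higher and 0 lower by limma (1 lower at an unadjusted p under 0.05), or 4 higher without control replicate 3, with a sum of 84.4, 85.0 and 79.4 RPKM in the controls and 185.5, 167.4 and 175.8 RPKM in the siTet1/Tet2 libraries, most of it Atp6v0d2. Of the 12 adipocyte and muscle markers 5 adipocyte genes, Adipoq, Plin1, Cidec, Fabp4 and Lpl, were called higher, and the only muscle gene tested, Acta1, was called lower, from 3.49 ± 0.504 to 2.20 ± 0.270 RPKM (SD, n = 3 a group; log2 fold change -0.49, adjusted p = 0.00854 from limma). Lpl was the most abundant of these 12, and their sum was 1069, 1192 and 1239 RPKM in the controls and 1939, 1801 and 1761 RPKM in the siTet1/Tet2 libraries. Of 12 markers of other marrow cells only 4 could be tested, of which 2 were called higher and 1 lower, with a sum of 3.96, 4.54 and 4.44 RPKM in the controls and 17.5, 14.1 and 10.5 RPKM in the siTet1/Tet2 libraries, S100a8 being the most abundant. The number higher there was 1 without control replicate 2 or 3 or siTet1/Tet2 replicate 1 or 3, and the number lower was 2 without control replicate 2. Ncr1 and S100a9 stood at the lowest listed value of 0.001 RPKM in all 6 libraries, and the brown-fat marker Ucp1 and the muscle genes Ckm, Myh1, Myh4 and Myh7 did not reach the level for testing.

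Control replicate 3 stood apart for the subunit genes and is described before the group comparison. It held the lowest value of the 6 libraries in 69 of the 81 tested members, against 20.4% of all genes tested. The median deviation of the members from their mean over the 6 libraries was 0.078, -0.007 and -0.315 on the log2 scale in control replicates 1, 2 and 3 and 0.101, 0.139 and -0.009 in siTet1/Tet2 replicates 1, 2 and 3. All 5 complexes had their lowest median in that library. The deviation went with transcript length across genes in general: in 598 genes at 1 RPKM or more whose transcript has up to 1000 nt, the median deviation of control replicate 3 was -0.21, and in the 2178 such genes of over 5000 nt it was 0.19. The members' transcripts are short, with a median of 870 nt against 3062 nt for all genes tested. What part transcript length or library preparation had in the members' values was not tested.

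**Figure D1:**
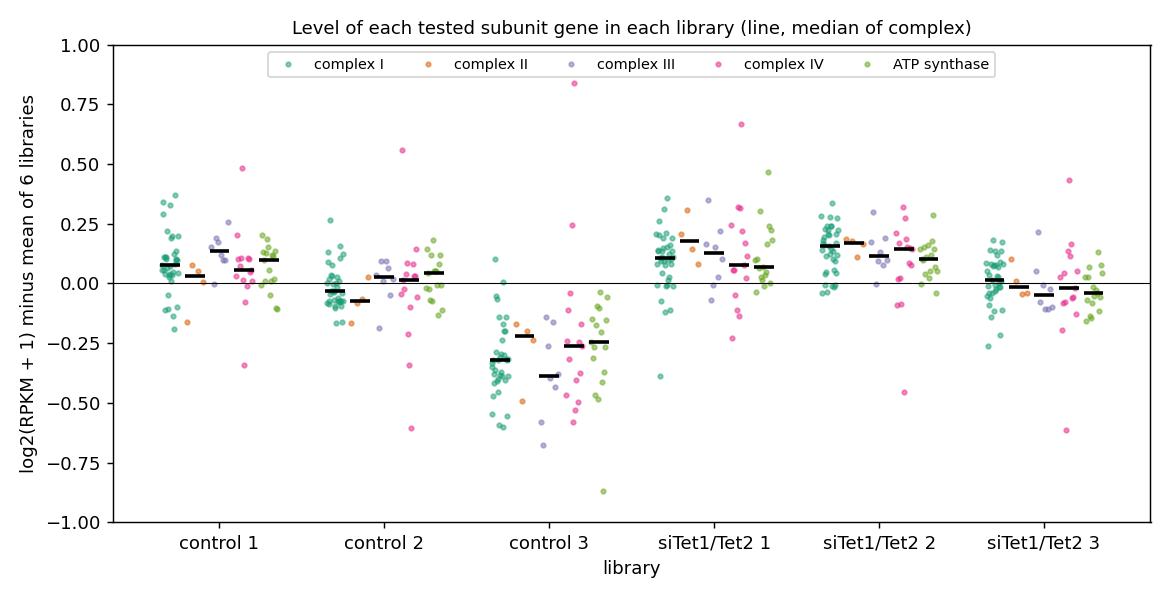
Each point is a tested subunit gene, placed by library on the horizontal axis and by its log2(RPKM + 1) minus its own mean over the 6 libraries on the vertical axis, with colours for the complexes and black lines for the median of each complex. The median of all members is -0.315 in control replicate 3 and between -0.009 and 0.139 in the other libraries.

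Taken over all complexes, few subunit genes were called in either direction on the RPKM scale. Of the 81 members tested 9 were called higher in the siTet1/Tet2 libraries, or 11.1%, against 14.7% of all genes tested, and 1 was called lower, or 1.23%, against 29.8% of all genes. The median log2 fold change of the members was 0.145, with 63 of 81 above 0, against a median of -0.09 over all genes. The members' short transcripts make genes of like length a closer background. In the 598 genes at 1 RPKM or more with transcripts up to 1000 nt, members included, 16.6% were called higher and 18.1% lower. The median log2 fold change of these 598 genes was -0.013, or -0.113 without control replicate 3, and 48.5% of them were above 0. The groups did not overlap, with all siTet1/Tet2 libraries higher, in 22 members, or 27.2%, against 19.8% of all genes, and with all siTet1/Tet2 libraries lower in 1 member against 35.9%. No member had both an unadjusted p under 0.05 from limma and a fold change over 2, against 6.58% of all genes, although 22 members had an unadjusted p under 0.05, 21 of them higher, or 25.9% against 17.7% of all genes, and 1 lower, or 1.23% against 34.6%. With a pseudocount of 0.01 in place of 1, Cox6a2 passed that fold change.

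The number called higher depended on the libraries used and on their scaling. Without control replicate 3, 12 members were called higher, or 14.8% against 15.2% of all genes, and 5 lower, or 6.17% against 31.2%, and the median was 0.04 with 50 of 81 above 0. All 10 members called with the 6 libraries were among these, in the same direction. Without control replicate 1, 25 were called higher, or 30.9% against 13.8% of all genes, and 0 lower. Without siTet1/Tet2 replicate 1, 4 were called higher, or 4.94% against 11.1% of all genes, and without siTet1/Tet2 replicate 2, 3 were called higher, or 3.7% against 10.6%. The labels name no pairs, so a replicate block, which compares libraries with the same number, was fitted as an alternative only. With the block 30 were called higher, or 37.0% against 16.9% of all genes, and 1 lower. By complex these were 15 higher in complex I, 2 in complex II, 2 in complex III, 6 in complex IV and 5 in ATP synthase. When the libraries were scaled by the median ratio of their genes 26 were called higher, or 32.1% against 20.3% of all genes. After quantile normalization 41 were called higher, or 50.6% against 27.1% of all genes, and 0 lower against 19.9%. Whether the share of members called higher lay below or above that of all genes thus depended on the scaling and the libraries. The median of all genes, -0.09 in RPKM, was -0.01 with the median ratio and 0.05 after quantile normalization. Relative to the median of all genes the members' median was higher by 0.23 in the main comparison, by 0.182 to 0.255 under the other scalings and by 0.13 without control replicate 3.

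**Figure D2:**
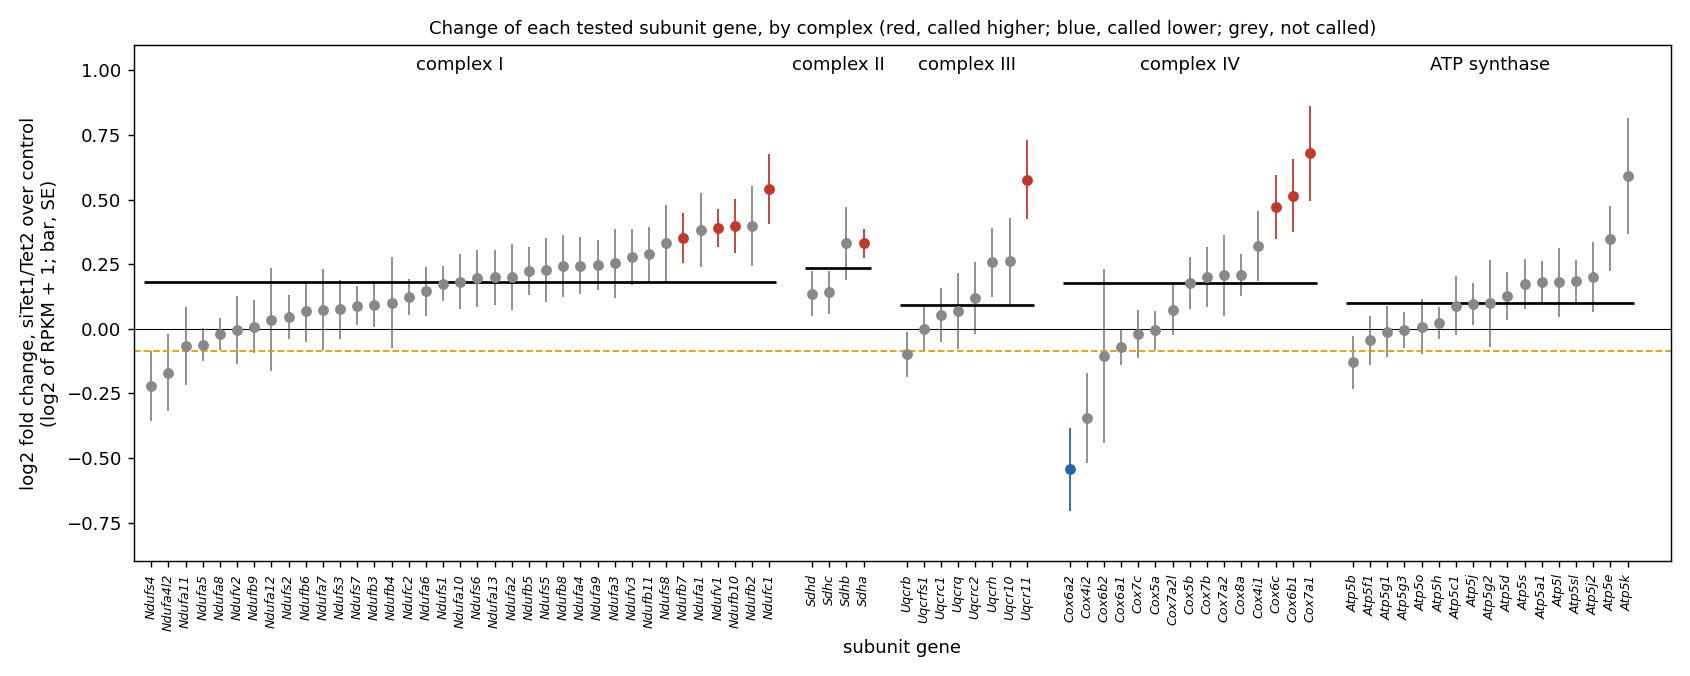
The log2 fold change of siTet1/Tet2 over control, on the log2(RPKM + 1) scale, is drawn for each of the 81 tested subunit genes with its SE, ordered within each complex. Black bars mark the median of each complex, from 0.09 in complex III to 0.24 in complex II, and the dashed line marks the median of all genes tested, -0.09.

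Complex I carries electrons from NADH to ubiquinone and is the largest of the complexes. Its 37 members, counted by symbol, include Ndufa4, now assigned to complex IV, and the related Ndufa4l2. The members ranged in log2 fold change from -0.22 to 0.54 around a median of 0.18. Of these, 4 were called higher, or 10.8% against 14.7% of all genes, and 0 lower by limma. At an unadjusted p under 0.05 from limma 11 were higher, or 29.7% against 17.7% of all genes, and 0 lower. The median was 0.067 without control replicate 3, with 6 called higher and 1 lower. Their summed level was 2680, 2492 and 2031 RPKM in the controls and 2752, 2824 and 2558 RPKM in the siTet1/Tet2 libraries, so that control replicate 1 lay above siTet1/Tet2 replicate 3 and the groups overlapped. For every replicate number the sum was higher in siTet1/Tet2 than in control, although the labels name no pairs. With the replicate block 15 of the 37 members were called higher, where 16.9% of all genes were. The 7 nuclear core subunits, which hold the flavin and iron-sulfur clusters, had a median of 0.09 with 1 called higher, or 14.3%. The 30 others had a median of 0.20 with 3 called higher, or 10.0%, against 14.7% of all genes. Leaving out control replicate 3 gave 0.041 with 2 higher for the core subunits and 0.075 with 4 higher and 1 lower for the others.

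Ndufv1, on chromosome 19 from 4007384 to 4012806 of GRCm38, encodes the core subunit that binds NADH and the flavin. It was at 43.5, 41.6 and 37.2 RPKM in the controls and at 51.4, 56.8 and 52.8 RPKM in the siTet1/Tet2 libraries. All siTet1/Tet2 libraries lay above all controls, and Ndufv1 was called higher with a log2 fold change of 0.39 (SE 0.07, adjusted p = 0.00342 from limma). Like Ndufb10 and Ndufb7 it is named because of its values, and its call held in all 20 alternatives run, with an adjusted p between 0.000151 and 0.0442. Its partner in the NADH-binding module, Ndufv2, was at 60.6 ± 11.2 RPKM (SD, n = 3) in the controls and 59.9 ± 4.94 RPKM (SD, n = 3) in the siTet1/Tet2 libraries, with overlapping groups and a log2 fold change of -0.004 (adjusted p = 0.984 from limma), or -0.163 without control replicate 3, and was looked at after the values were seen.

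Ndufc1, an accessory subunit of the membrane arm, had the largest rise in complex I. It was at 45.0, 47.2 and 32.4 RPKM in the controls and at 63.8, 62.9 and 54.0 RPKM in the siTet1/Tet2 libraries. The groups did not overlap, and control replicate 3 was the lowest library. The log2 fold change was 0.54 (SE 0.14, adjusted p = 0.013 from limma) with all libraries and 0.38 (adjusted p = 0.00572 from limma) without control replicate 3. The membrane-arm subunits Ndufb10 and Ndufb7, named after the values were seen, were also called higher, Ndufb10 from 69.5 ± 10.6 to 91.1 ± 1.48 RPKM (SD, n = 3 a group; log2 fold change 0.40, adjusted p = 0.0156 from limma) and Ndufb7 from 89.3 ± 11.8 to 114 ± 6.76 RPKM (SD, n = 3 a group; log2 fold change 0.35, adjusted p = 0.0199 from limma), without overlap of the groups in either gene. Without siTet1/Tet2 replicate 2 Ndufc1, Ndufb10 and Ndufb7 missed the threshold (adjusted p = 0.0521, 0.0575 and 0.0781 from limma), and Ndufb7 also without control replicate 2 or siTet1/Tet2 replicate 1 (adjusted p = 0.0566 and 0.0665 from limma). Ndufb2, next to Ndufc1 in size of change, was at 49.0, 47.0 and 31.6 RPKM in the controls and at 60.0, 55.6 and 50.8 RPKM in the siTet1/Tet2 libraries, also without overlap, but its log2 fold change of 0.40 missed the threshold (adjusted p = 0.0671 from limma), which it passed without control replicate 1 (adjusted p = 0.0342 from limma). Its log2 fold change was 0.20 (adjusted p = 0.0548 from limma) without control replicate 3, and with the replicate block Ndufb2 was called higher (adjusted p = 0.00718 from limma).

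The lowest fold changes of complex I were those of Ndufs4 and Ndufa4l2. Ndufs4, a subunit whose loss in mice causes an encephalopathy, was at 33.0, 28.3 and 21.9 RPKM in the controls and at 23.3, 25.2 and 21.6 RPKM in the siTet1/Tet2 libraries. The groups overlapped only through control replicate 3. With it the log2 fold change was -0.22 (adjusted p = 0.215 from limma), and without it -0.375 (adjusted p = 0.00968 from limma). Ndufa4 was first assigned to complex I and is now counted as a subunit of complex IV, and Ndufa4l2 is its hypoxia-induced relative. Ndufa4, the most abundant Nduf member, was at 239.4, 225.5 and 180.9 RPKM in the controls and at 250.9, 272.6 and 238.3 RPKM in the siTet1/Tet2 libraries, and Ndufa4l2 at 0.83, 1.37 and 1.12 RPKM in the controls and at 0.512, 0.966 and 1.18 RPKM in the siTet1/Tet2 libraries. Neither was called, with log2 fold changes of 0.25 (adjusted p = 0.102 from limma) and -0.17 (adjusted p = 0.386 from limma), and Ndufa4l2 rests on an estimated 18 to 42 reads in a library. Ndufa4 passed the threshold without control replicate 1 (adjusted p = 0.0464 from limma), and without control replicate 3 its log2 fold change was 0.125 (adjusted p = 0.166 from limma). It was called higher with the replicate block (adjusted p = 0.0257 from limma).

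Complex II, succinate dehydrogenase, is also an enzyme of the tricarboxylic acid cycle and has no subunit from mitochondrial DNA. Sdha, its flavoprotein, on chromosome 13 from 74322254 to 74350280, was at 109.2, 108.8 and 108.3 RPKM in the controls and at 141.3, 139.1 and 131.0 RPKM in the siTet1/Tet2 libraries. The controls, replicate 3 included, were within 1 RPKM of each other, and all siTet1/Tet2 libraries lay above them. The log2 fold change was 0.33 (SE 0.06, adjusted p = 0.00193 from limma), the lowest adjusted p among the members, and its call held in all 20 alternatives, with an adjusted p between 0.00023 and 0.0146. Without control replicate 3 it was 0.33 (adjusted p = 0.00154 from limma).

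Sdhb, the iron-sulfur subunit, had the same log2 fold change of 0.33 with a wider spread. It was at 136.5, 122.4 and 91.8 RPKM in the controls and at 160.5, 146.6 and 130.6 RPKM in the siTet1/Tet2 libraries. Control replicate 1 lay above siTet1/Tet2 replicate 3, and Sdhb was not called (adjusted p = 0.0915 from limma). Sdhc and Sdhd, which anchor the enzyme in the membrane, were at 108 ± 9.56 and 80.5 ± 7.98 RPKM (SD, n = 3) in the controls and at 119 ± 8.18 and 88.4 ± 6.33 RPKM (SD, n = 3) in the siTet1/Tet2 libraries, with overlapping groups and log2 fold changes of 0.14 for each (adjusted p = 0.201 and 0.241 from limma), or 0.076 and 0.052 without control replicate 3. The ratio of Sdha to Sdhb overlapped between the groups. Sdhb passed the threshold without control replicate 1 (log2 fold change 0.45, adjusted p = 0.0309 from limma), while without control replicate 3 its log2 fold change was 0.17 (adjusted p = 0.162 from limma). Sdhb was higher in siTet1/Tet2 than in control for every replicate number and was called with the replicate block (adjusted p = 0.00526 from limma).

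Complex III passes electrons from ubiquinol to cytochrome c. Of its 8 members 1 was called higher by limma, or 12.5% against 14.7% of all genes, and 0 lower against 29.8%. At an unadjusted p under 0.05 from limma 1 was higher, or 12.5% against 17.7% of all genes. Their median log2 fold change was 0.09 with all libraries and -0.06 without control replicate 3. The summed level was 757.9, 684.8 and 520.7 RPKM in the controls and 740.5, 747.8 and 671.9 RPKM in the siTet1/Tet2 libraries. The member called higher was Uqcr11, a small subunit at the periphery of the complex. Uqcr11 was at 71.3, 62.5 and 44.3 RPKM in the controls and at 91.3, 88.0 and 83.1 RPKM in the siTet1/Tet2 libraries. All siTet1/Tet2 libraries lay above all controls, with a log2 fold change of 0.58 (SE 0.15, adjusted p = 0.0154 from limma) that was 0.38 (adjusted p = 0.00311 from limma) without control replicate 3. Without siTet1/Tet2 replicate 1 or 2 Uqcr11 just missed the threshold (adjusted p = 0.053 and 0.0516 from limma).

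The other named subunits of complex III were not called. Uqcr10 was at 86.4 ± 21.9 RPKM (SD, n = 3) in the controls and 101 ± 4.87 RPKM (SD, n = 3) in the siTet1/Tet2 libraries (log2 fold change 0.26, adjusted p = 0.24 from limma), and its log2 fold change was 0.037 without control replicate 3. Uqcrq, the most abundant, was at 152 ± 33.1 and 157 ± 12.3 RPKM (SD, n = 3), and Uqcrfs1, the Rieske iron-sulfur protein, at 54.3 ± 5.26 and 54.1 ± 3.59 RPKM (SD, n = 3). Their log2 fold changes were 0.069 and -0.002, and -0.104 and -0.083 without control replicate 3. Uqcrb, which helps to bind ubiquinone, was at 63.4, 59.1 and 50.2 RPKM in the controls and at 52.6, 55.3 and 52.4 RPKM in the siTet1/Tet2 libraries. Control replicates 1 and 2 lay above and control replicate 3 below all siTet1/Tet2 libraries, and the log2 fold change was -0.10 (adjusted p = 0.387 from limma) with it and -0.19 (adjusted p = 0.0229 from limma) without it.

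Complex IV, cytochrome c oxidase, surrounds its mitochondrially encoded core with nuclear subunits, several of which exist as a ubiquitous isoform and as a form known from heart and skeletal muscle, lung or testis. Of the 18 members 15 were tested, and 3 were called higher, or 20.0% against 14.7% of all genes, and 1 lower, or 6.67% against 29.8%, and the log2 fold changes had a median of 0.18 and a range from -0.54 to 0.68. Leaving out control replicate 3 gave a median of 0.062, with 3 called higher and 2 lower. The summed level was 2000, 1888 and 1542 RPKM in the controls and 2162, 2154 and 1940 RPKM in the siTet1/Tet2 libraries, with control replicate 1 above siTet1/Tet2 replicate 3, although it was higher in siTet1/Tet2 for every replicate number. The ubiquitous isoforms made up nearly all of it.

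Cox6b1, a subunit facing the intermembrane space, was at 278.4, 237.5 and 184.0 RPKM in the controls and at 343.6, 343.5 and 302.8 RPKM in the siTet1/Tet2 libraries. The groups did not overlap, and Cox6b1 was called higher with a log2 fold change of 0.52 (SE 0.14, adjusted p = 0.0177 from limma). Cox6c, a membrane subunit without isoforms, was at 75.8, 74.5 and 55.1 RPKM in the controls and at 99.9, 97.0 and 86.6 RPKM in the siTet1/Tet2 libraries. It was called higher with a log2 fold change of 0.47 (SE 0.12, adjusted p = 0.0145 from limma), again without overlap. Without control replicate 3 these changes were 0.36 (adjusted p = 0.0113 from limma) and 0.32 (adjusted p = 0.00566 from limma). Without siTet1/Tet2 replicate 1 the adjusted p from limma was 0.0605 for Cox6b1 and 0.0548 for Cox6c, and without siTet1/Tet2 replicate 2 it was 0.0667 and 0.0549.

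The muscle isoforms of complex IV moved in opposite directions from low levels. Cox7a1, the heart and muscle form of subunit VIIa, on chromosome 7 from 30184144 to 30186078, was at 4.73, 2.79 and 3.36 RPKM in the controls and at 8.15, 5.57 and 5.47 RPKM in the siTet1/Tet2 libraries. All siTet1/Tet2 libraries lay above all controls, and its log2 fold change of 0.68 (SE 0.18, adjusted p = 0.0173 from limma) was the largest rise among the members. Its call was lost without control replicate 2 (adjusted p = 0.0648 from limma) or siTet1/Tet2 replicate 1 (adjusted p = 0.0556 from limma), and also without a filter on low values or with gene-wise variance. Cox6a2, the heart and muscle form of subunit VIa, on chromosome 7 from 128205435 to 128206387, was at 2.06, 1.32 and 1.59 RPKM in the controls and at 1.02, 1.06 and 0.427 RPKM in the siTet1/Tet2 libraries. All siTet1/Tet2 libraries lay below all controls, and its log2 fold change of -0.54 (SE 0.16, adjusted p = 0.0245 from limma) was the largest fall and the only member called lower. Its values correspond to an estimated 52, 30 and 35 reads in the controls and 27, 28 and 10 reads in the siTet1/Tet2 libraries. The call was lost under quantile normalization (adjusted p = 0.226 from limma) and without control replicate 1 (adjusted p = 0.072 from limma), and also without a filter on low values or with gene-wise variance.

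The ubiquitous partners of these isoforms were not called. Cox7a2 was at 108.1, 106.2 and 70.7 RPKM in the controls and at 117.1, 111.6 and 96.1 RPKM in the siTet1/Tet2 libraries (log2 fold change 0.21, adjusted p = 0.318 from limma), and its log2 fold change was 0.010 without control replicate 3. Cox6a1 was at 339.5, 324.3 and 306.8 RPKM in the controls and at 304.7, 320.4 and 298.9 RPKM in the siTet1/Tet2 libraries (log2 fold change -0.07, adjusted p = 0.438 from limma, or -0.108 without control replicate 3). A ratio of isoforms within a library does not depend on scaling by a factor for each library, although quantile normalization can change it. Cox7a1 reached 4.37%, 2.63% and 4.76% of Cox7a2 in the controls and 6.96%, 4.99% and 5.68% in the siTet1/Tet2 libraries, and Cox6a2 reached 0.607%, 0.408% and 0.518% of Cox6a1 in the controls and 0.336%, 0.33% and 0.143% in the siTet1/Tet2 libraries. Neither ratio overlapped between the groups, with an exact permutation p = 0.1 for each, the smallest that 3 libraries against 3 can give.

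The remaining isoforms of complex IV were not called in the main comparison. Among the alternatives run, Cox4i1 and Cox8a passed the threshold in 6 each, Cox7b in 3 and Cox4i2 in 1. Cox4i1, the ubiquitous form of subunit IV and the most abundant member of all, was at 547.9, 521.1 and 387.5 RPKM in the controls and at 636.0, 620.8 and 547.1 RPKM in the siTet1/Tet2 libraries. Control replicate 1 lay just above siTet1/Tet2 replicate 3, and the log2 fold change was 0.32 (adjusted p = 0.0876 from limma), or 0.42 (adjusted p = 0.046 from limma) without control replicate 1 and 0.17 (adjusted p = 0.113 from limma) without control replicate 3. With the replicate block Cox4i1 was called higher (adjusted p = 0.00981 from limma). Cox4i2, the oxygen-regulated form known from lung, was at 0.879, 1.405 and 0.381 RPKM in the controls and at 0.392, 0.532 and 0.426 RPKM in the siTet1/Tet2 libraries, an estimated 9 to 34 reads in a library. Control replicate 3 lay below all siTet1/Tet2 libraries and the other controls above them, with a log2 fold change of -0.35 (adjusted p = 0.144 from limma), or -0.55 (adjusted p = 0.00561 from limma) without control replicate 3. Cox4i2 was 0.16%, 0.27% and 0.0983% of Cox4i1 in the controls and 0.0616%, 0.0857% and 0.0779% in the siTet1/Tet2 libraries, without overlap (exact permutation p = 0.1).

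Cox6b2, the testis form of subunit VIb, was at 0.402, 0.4 and 2.17 RPKM in the controls and at 0.613, 0.295 and 1.40 RPKM in the siTet1/Tet2 libraries, so that its highest values were in replicate 3 of both groups (log2 fold change -0.105, adjusted p = 0.82 from limma), and the direction turned without control replicate 3 (log2 fold change 0.288, adjusted p = 0.319 from limma). Cox8a was at 171 ± 16.5 and 197 ± 6.28 RPKM (SD, n = 3) in the control and siTet1/Tet2 libraries without overlap (log2 fold change 0.21, adjusted p = 0.067 from limma, 0.0352 without control replicate 1, and 0.0783 with a change of 0.13 without control replicate 3), and Cox7b at 51.9 ± 8.33 and 59.3 ± 4.21 RPKM (SD, n = 3) with overlap. Both were called higher with the replicate block (adjusted p = 0.0253 and 0.038 from limma), and the log2 fold change of Cox7b was 0.20, or 0.062 without control replicate 3. Cox7a2l, which takes part in the joining of complexes III and IV, was at 72.0 ± 8.94 and 75.5 ± 4.18 RPKM (SD, n = 3), with overlap and a log2 fold change of 0.073, or -0.031 without control replicate 3. Cox8b and Cox7b2 were listed at 0.001 RPKM in 5 libraries and at 0.155 and 0.104 RPKM in siTet1/Tet2 replicate 3, an estimated 2 reads each, and Cox8c was at 0.001 RPKM in all 6, so these 3 members were not tested. Muscle isoforms were therefore not raised as a group: Cox7a1 was called higher, Cox6a2 was called lower and Cox8b was at the detection limit.

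**Figure D3:**
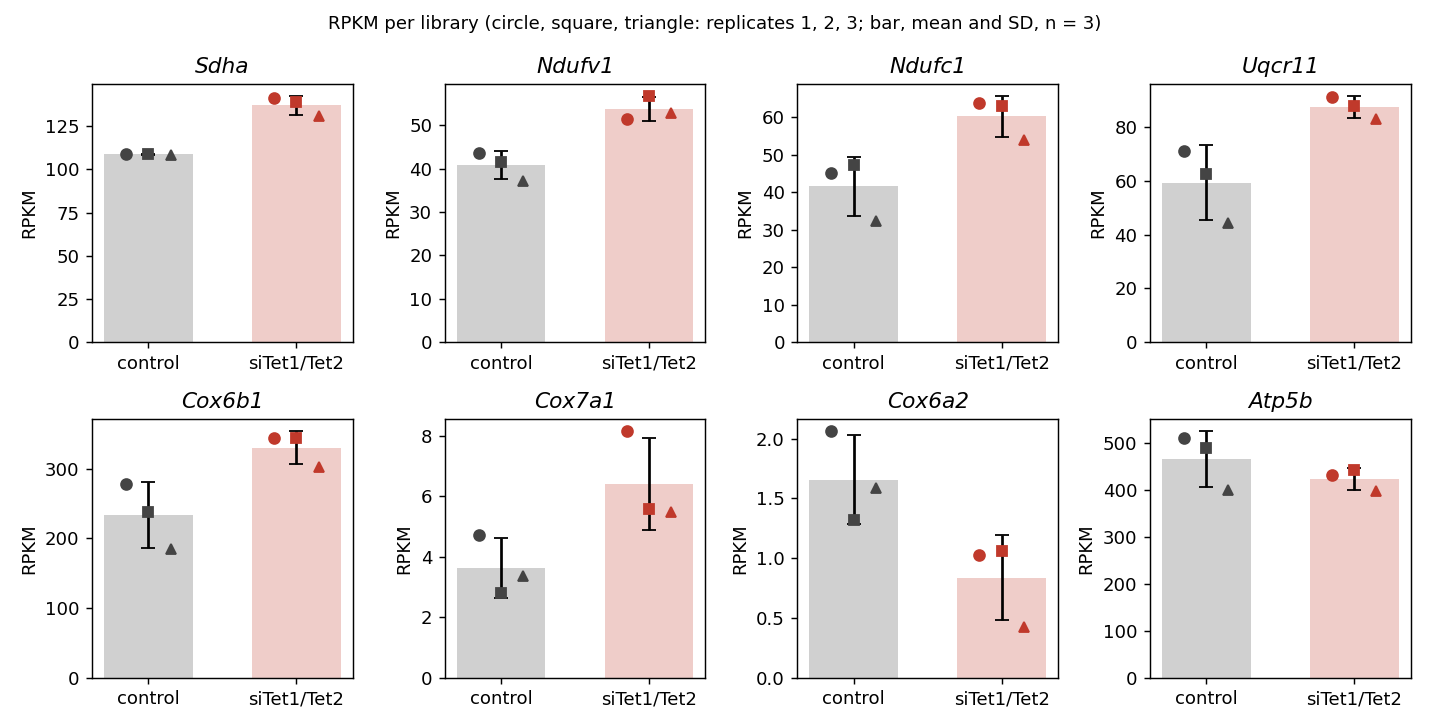
RPKM is plotted on a linear axis from 0 for 8 subunit genes, with 3 libraries a group as points and the group mean and SD (n = 3) as bars. Sdha, Ndufv1, Ndufc1, Uqcr11, Cox6b1 and Cox7a1 lie higher and Cox6a2 lower in every siTet1/Tet2 library than in every control, and Atp5b overlaps between the groups.

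ATP synthase consists of a catalytic F1 head, a ring of c subunits that turns in the membrane, and a stalk that holds the head still. None of its 17 members was called by limma in either direction, against 14.7% of all genes higher and 29.8% lower. At an unadjusted p under 0.05 from limma 2 were higher, or 11.8% against 17.7% of all genes, and 0 lower against 34.6%. The median log2 fold change was 0.10 with a range from -0.13 to 0.59. When control replicate 3 was left out the median was 0.017, with 1 called higher and 1 lower. The summed level was 2238, 2161 and 1763 RPKM in the controls and 2248, 2248 and 2058 RPKM in the siTet1/Tet2 libraries. The 5 subunits of the F1 head had a median of 0.13, the 3 genes of the c ring -0.004, the 4 genes of the peripheral stalk 0.02 and the 3 small membrane subunits 0.20. In the same order these medians were 0.026, -0.062, -0.056 and 0.044 without control replicate 3. Atp5s and Atp5sl, which share the symbol but are not structural subunits, were at 3.76 and 5.26 RPKM on average in the controls and at 4.38 and 6.11 RPKM in the siTet1/Tet2 libraries.

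Atp5k, a small membrane subunit that takes part in dimer formation, had the largest log2 fold change of ATP synthase and the widest spread. It was at 83.0, 69.7 and 41.4 RPKM in the controls and at 106.2, 93.7 and 84.0 RPKM in the siTet1/Tet2 libraries. The groups did not overlap, with control replicate 3 far below the others, and the log2 fold change was 0.59 (SE 0.22, adjusted p = 0.0612 from limma), or 0.305 (adjusted p = 0.0482 from limma) without control replicate 3 and 0.80 (adjusted p = 0.0169 from limma) without control replicate 1. Atp5k was called higher with the replicate block (adjusted p = 0.0043 from limma). Atp5e, a subunit of the central stalk, was at 219 ± 37.0 RPKM (SD, n = 3) in the controls and 277 ± 23.4 RPKM (SD, n = 3) in the siTet1/Tet2 libraries without overlap and missed the threshold (log2 fold change 0.35, adjusted p = 0.0539 from limma, 0.0278 without control replicate 1, and 0.0572 with a change of 0.20 without control replicate 3), which it passed with the replicate block (adjusted p = 0.00556 from limma). Atp5f1, a stalk subunit, was at 83.6 ± 9.72 and 80.8 ± 5.41 RPKM (SD, n = 3) with overlap and a log2 fold change of -0.045, or -0.144 without control replicate 3.

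The catalytic head is built of alternating alpha and beta subunits in equal number. Atp5b, the beta subunit and the most abundant member of ATP synthase, was at 509.8, 488.9 and 399.2 RPKM in the controls and at 431.9, 442.2 and 397.2 RPKM in the siTet1/Tet2 libraries. Control replicates 1 and 2 lay above all siTet1/Tet2 libraries and control replicate 3 among them, with a log2 fold change of -0.13 (adjusted p = 0.34 from limma), or -0.24 (adjusted p = 0.0179 from limma) without control replicate 3. Atp5a1, the alpha subunit, was at 307.5, 305.4 and 260.9 RPKM in the controls and at 330.8, 342.2 and 315.0 RPKM in the siTet1/Tet2 libraries, with no overlap and a log2 fold change of 0.18 (adjusted p = 0.114 from limma), and was called higher with the replicate block (adjusted p = 0.0427 from limma), with 0.103 without control replicate 3. The ratio of Atp5a1 to Atp5b, chosen after its values were seen, was 60.3%, 62.5% and 65.4% in the controls and 76.6%, 77.4% and 79.3% in the siTet1/Tet2 libraries. The ratio was higher in every siTet1/Tet2 library than in every control, control replicate 3 included (exact permutation p = 0.1, the smallest that 3 libraries against 3 can give). Neither gene was called on its own in the main comparison.

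The c subunit is encoded by 3 genes whose mature proteins are identical and which differ in the peptide that directs import. Atp5g3 was at 289.2, 288.9 and 259.3 RPKM in the controls and at 276.2, 282.7 and 275.1 RPKM in the siTet1/Tet2 libraries. Atp5g1 was at 24.2 ± 2.84 and 24.0 ± 2.22 RPKM (SD, n = 3) and Atp5g2 at 20.2 ± 5.04 and 21.2 ± 1.88 RPKM (SD, n = 3) in the control and siTet1/Tet2 libraries. Atp5g3 lay far above the others in every library, all 3 overlapped between the groups, and their log2 fold changes were -0.004, -0.011 and 0.099, with adjusted p-values of 0.967, 0.937 and 0.661 from limma. Without control replicate 3 these changes were -0.056, -0.062 and -0.117, so that the direction of Atp5g2 turned.

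The other genes of oxidative phosphorylation were read against the same background of 14.7% higher and 29.8% lower. The 13 subunits encoded in mitochondrial DNA were listed at 0.001 RPKM in all 6 libraries, so that nothing can be said of the mitochondrial share of the complexes. Of 23 electron carriers and subunits outside the symbol rule 4 were called higher and 4 lower, with a median log2 fold change of 0.092. Without control replicate 3, 7 of these were called lower and the median was -0.021, and without siTet1/Tet2 replicate 1 or 2 only 1 was called higher. The balance depended on the scaling, with 9 higher and 3 lower after quantile normalization, 8 and 4 with equal sums without the 50 most abundant genes, 2 and 6 with TPM scaling, and 7 and 6 with the replicate block. The largest rise was that of Adck3, a kinase-like protein of ubiquinone synthesis, from 0.799 ± 0.176 to 1.68 ± 0.325 RPKM (SD, n = 3 a group; log2 fold change 0.57, adjusted p = 0.00403 from limma). The largest fall was that of Pdss1, which makes the side chain of ubiquinone, from 3.45 ± 0.368 to 1.68 ± 0.237 RPKM (SD, n = 3 a group; log2 fold change -0.73, adjusted p = 0.000735 from limma).

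Assembly factors build the complexes without being part of them. Of 15 tested assembly factors of complex I 6 were called lower and 0 higher by limma, with 7 lower and 0 higher at an unadjusted p under 0.05 and a median log2 fold change of -0.21, and the largest fall was that of Ndufaf4 from 5.41 ± 0.523 to 3.62 ± 0.131 RPKM (SD, n = 3 a group; log2 fold change -0.47, adjusted p = 0.00389 from limma). For complex I the number lower was 8 without control replicate 3, 2 without control replicate 2 or siTet1/Tet2 replicate 1, 2 with median ratio scaling and 1 after quantile normalization, and 1 was higher without control replicate 1. Of 25 factors of complex IV 5 were called lower and 1 higher, with a median of -0.07. For these the number lower was 10 without control replicate 3, with a median of -0.164, and 3 without siTet1/Tet2 replicate 1, and the number higher was 2 without control replicate 1 or siTet1/Tet2 replicate 3. With TPM scaling 8 were lower and 1 higher, after quantile normalization 4 were lower and 4 higher, and with the replicate block 6 were lower and 3 higher. Cox18, which inserts a mitochondrially encoded subunit into the membrane, was at 10.1, 12.0 and 9.92 RPKM in the controls and at 5.24, 5.12 and 5.86 RPKM in the siTet1/Tet2 libraries without overlap (log2 fold change -0.86, adjusted p = 0.000213 from limma), and Cmc2 was higher (log2 fold change 0.375, adjusted p = 0.012 from limma). Of 12 factors of complexes II and III and ATP synthase 3 were called lower and 1 higher, with a median of -0.01. Ttc19, a factor of complex III, was at 11.6, 13.1 and 12.3 RPKM in the controls and at 4.02, 6.61 and 4.33 RPKM in the siTet1/Tet2 libraries without overlap (log2 fold change -1.18, adjusted p = 0.000434 from limma), and Acn9, a factor of complex II, was higher (log2 fold change 0.37, adjusted p = 0.021 from limma). In this list 0 were called higher without control replicate 2 or siTet1/Tet2 replicate 1.

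Further lists covered the mitochondrial genes around the chain. Of 77 proteins of the mitochondrial ribosome, which translates the mitochondrially encoded subunits, 14 were called lower and 2 higher, with a median of -0.115 on the log2 scale, Mrpl32 the largest fall (-0.57, adjusted p = 0.00409 from limma) and Mrpl34 the largest rise (0.41, adjusted p = 0.00967 from limma). The count was unstable: 39 were lower without control replicate 3, with a median of -0.223, 7 without control replicate 2, 9 without control replicate 1 or siTet1/Tet2 replicate 3, and 5 were lower and 5 higher after quantile normalization. Without siTet1/Tet2 replicate 2, 1 was higher. Of 22 genes of the outer membrane, import and cristae 9 were called lower and 0 higher by limma (9 and 0 at an unadjusted p under 0.05), with a median of -0.162. Without control replicate 3, 16 of these were called lower and the median was -0.232, with TPM scaling 15 were called lower, and without siTet1/Tet2 replicate 2, 1 was called higher. Hspd1, the matrix chaperonin, was at 66.9, 70.4 and 75.4 RPKM in the controls and at 40.1, 41.2 and 45.6 RPKM in the siTet1/Tet2 libraries without overlap (log2 fold change -0.73, adjusted p = 0.000111 from limma). Of 20 genes of the tricarboxylic acid cycle and pyruvate dehydrogenase 7 were called lower and 4 higher, with a median of -0.068, or -0.156 without control replicate 3. Only 1 was called higher without siTet1/Tet2 replicate 1 or 2. The balance turned with scaling, to 7 higher and 4 lower with the median ratio and 7 higher and 3 lower after quantile normalization or with equal sums without the 50 most abundant genes, and the replicate block gave 7 higher and 8 lower. Idh3a, a subunit of isocitrate dehydrogenase, fell from 34.4 ± 4.55 to 25.9 ± 0.602 RPKM (SD, n = 3 a group; adjusted p = 0.0113 from limma), and Mpc1, a subunit of the mitochondrial pyruvate carrier, rose from 19.6 ± 3.86 to 36.8 ± 6.19 RPKM (SD, n = 3 a group; log2 fold change 0.88, adjusted p = 0.00257 from limma).

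Of 17 tested regulators of mitochondrial biogenesis 4 were called lower and 1 higher, and the median of their log2 fold changes was -0.06. After quantile normalization 1 was lower and 3 were higher, with the median ratio 2 were lower and 1 higher, and with TPM scaling 4 were lower and 0 higher. The coactivator Ppargc1b was at 0.341, 0.5 and 0.507 RPKM in the controls and at 0.762, 0.657 and 0.749 RPKM in the siTet1/Tet2 libraries (log2 fold change 0.25, adjusted p = 0.0255 from limma), whereas the related Pprc1 was at 12.0, 12.4 and 13.9 RPKM in the controls and at 8.15, 8.88 and 9.002 RPKM in the siTet1/Tet2 libraries (log2 fold change -0.51, adjusted p = 0.00162 from limma). Neither overlapped between the groups, and Ppargc1a was too low to be tested. In this list 0 were called higher without control replicate 1, siTet1/Tet2 replicate 1 or siTet1/Tet2 replicate 3, and 2 without control replicate 2, while 2 were called lower without control replicate 2, siTet1/Tet2 replicate 1 or siTet1/Tet2 replicate 2.

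Promoter sequence was read for known motifs of mitochondrial genes. Promoter windows of RefSeq on GRCm38.p6, from 250 bases before to 50 after the transcription start, were found for 69 members and for 9882 of the genes tested. The ratio of observed to expected CpG pairs had a median of 0.807 in the members and 0.758 in the genes tested. On either strand, the letters GCGCATGCG of the factor NRF1 stood in 8 members, or 11.6%, against 4.08% of the genes tested, the letters CCGGAAG of ETS factors in 16 members, or 23.2%, against 19.4%, and the letters AAGATGGCG of YY1 in 8 members, or 11.6%, against 3.46%. At least 1 of these was found in 27 members, or 39.1%, against 25.1% of the genes tested, so most members had none, and in 4 of the 8 members that were called higher and had a window. The differences in these shares were not tested. A match describes letters only, and binding and methylation were not measured in these libraries. The stretches just upstream of the members with the largest rise in complexes III and IV are shown, with matched letters in capitals, because they contrast a window with such letters and a window without. Uqcr11 lies on the minus strand of chromosome 10 (chr10:80406831-80406930) and has 8 CpG pairs in 100 bases, and Cox7a1 lies on the plus strand of chromosome 7 (chr7:30184044-30184143) and has 3.
Uqcr11: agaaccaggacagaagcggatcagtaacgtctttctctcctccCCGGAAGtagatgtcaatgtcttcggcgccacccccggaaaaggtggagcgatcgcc
Cox7a1: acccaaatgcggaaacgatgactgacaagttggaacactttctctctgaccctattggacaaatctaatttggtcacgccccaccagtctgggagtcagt
The capitals in Uqcr11 mark the letters CCGGAAG, and its window also holds the NRF1 letters outside the stretch shown. The window of Cox7a1 holds none of the letters searched.

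Some members share sequence or exon positions with other genes, and reads were not examined for this. Copies of at least 95% identity over at least 50% of the longest protein-coding transcript were found for 7 members, Atp5h, Atp5k, Atp5l, Atp5o, Ndufb11, Ndufs3 and Uqcrb. Nearly all were processed pseudogenes, and copies of a shorter transcript could be missed. In Ndufb6, Atp5o and Ndufa13 more than 25% of the exon bases lie in exons of another gene. The values of these members are uncertain, and none of the 10 members called is among them. Below that limit, 10.3% of the exon bases of Cox6a2 lie in exons of Itgad. For Cox6c, 7.01% lie in exons of Vps13b, and the other called members had no such overlap. What part these overlaps had in the values of Cox6a2 and Cox6c was not tested.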

How the data were processed

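The authors mapped paired-end reads to GRCm38 with DNASTAR Lasergene. They deposited linear RPKM for 6 libraries, a unit their methods call FPKM. Their table also holds 1 column of their own p-values for each row, which was not used. The library kit does not mark strand.

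Where a symbol had several rows, the most abundant was taken. The fit was made on log2(RPKM + 1) with limma 3.58.1 in R 4.3.3 (lmFit, eBayes with trend, two-sided, Benjamini-Hochberg adjustment over all 13266 genes averaging 0.1 RPKM or more), after a run on simulated data. Members and lists were chosen with earlier results of these data known. Named members were all members of complex II, the isoform groups, and in each complex the 2 largest rises, the 2 largest falls and the highest mean. Others (Ndufv1, Ndufv2, Ndufb10, Ndufb7, Cox6c, Atp5a1, Atp5s, Atp5sl, Adipoq, Plin1, Fabp4, Fcgr1 and Mrc1) were named after their values were seen. Named list genes were the largest rise and fall among those called, and for marker lists the most abundant.

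Depth was estimated with Python 3.11.15 as the reads at which low RPKM of genes with 1 transcript lie nearest whole numbers: 37200000, 32900000 and 32400000 in the controls and 38400000, 38500000 and 35500000 in the siTet1/Tet2 libraries. Between 50.4% and 58.8% of these values lay within 0.1 of a whole read, against 20% by chance at a fixed depth, so the read numbers given are estimates, and no count test was run. Lengths, positions and copies (blastn 2.17.0) came from GENCODE M21 on GRCm38.

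Replicate numbers are shared by the groups. Deviations of libraries with the same number correlated across genes with r = 0.149, 0.117 and 0.462, and control replicate 1 with siTet1/Tet2 replicate 2 at 0.332. The labels name no pairs, and a replicate block was therefore fitted only as an alternative. Other alternatives changed the pseudocount (0.1 or 0.01), the filter (none, or a mean of at least 1 RPKM), the scaling (equal sums as in TPM, equal sums without the 50 most abundant genes, median ratio, quantile normalization), the variance (eBayes without trend, gene-wise variance), the libraries (each left out), the summing of rows and the threshold (an adjusted p under 0.01). Removal of each library's trend with transcript length was added after seeing the data.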

Additional observations from a re-analysis of the deposited data

How the results depend on the processing

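The median log2 fold change of the members was above 0 in every alternative run, between 0.04 and 0.24, and Sdha and Ndufv1 were called higher in all of them. The counts were less stable, and the cause was not tested. Against 9 higher and 1 lower, 2 members were higher and 0 lower without a filter on low values (with 3.34% of all genes higher), with gene-wise variance (11.7%) and at an adjusted p under 0.01 (8.91%). Those 2 were Sdha and Ndufv1. In contrast, 41 were higher (with 19.9% of all genes) with equal sums without the 50 most abundant genes, 26 (20.3%) with the median ratio, 41 (27.1%) with 0 lower after quantile normalization, 30 (16.9%) with the replicate block and 38 (23.0%) after removal of the length trend, which was chosen after seeing the data. With 1 library left out, between 3 (without siTet1/Tet2 replicate 2) and 25 (without control replicate 1) were higher and between 0 and 5 (without control replicate 3) lower. The number past a fold change of 2 was 0, or 1 with a pseudocount of 0.01. The median of complex II ranged from 0.122 to 0.28 and that of complex III from -0.056 to 0.212 with 1 library left out, both lowest without control replicate 3. After quantile normalization the median of all genes was 0.054 in place of -0.09. Among 36 members, those named by the rule with Ndufv1, Ndufb10, Ndufb7 and Cox6c, 584 of 717 values kept direction and side of the threshold, 58 passed it, 39 no longer did, and 36 of members not called changed sign. With 3 libraries a group, member fold changes had a median SE of 0.11.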
